A study of Mus musculus with 2 samples.

Results

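Bile acid synthesis and transport was followed through 10 genes chosen by name, out of 19059 genes in the probe set, and all 10 were measured. They are the synthesis enzymes Cyp7a1, Cyp8b1 and Cyp27a1, the conjugating enzyme Baat, the uptake transporters Slc10a1 and Slco1b2, the export pumps Abcb11 and Abcc2, and the nuclear receptors Nr1h4 and Nr0b2. Minced mouse liver tissue was fixed and then dissociated into cells. The cells were profiled with the probe-based single-cell assay of 10x Genomics. In this assay pairs of probes are hybridized to each transcript and counted per cell. The libraries are 1 labelled AEG-1DMAC, from mice lacking AEG-1 in myeloid cells, and 1 labelled AEG-1fl/fl, from mice carrying the floxed allele. Mice of both labels received a high fat and high sugar diet (HF/HSD), begun at 7 weeks of age and kept up for 20 weeks, and were 27 weeks old when the livers were taken. The floxed allele was made on a C57BL/6/J background. In AEG-1DMAC mice the floxed gene, Mtdh, is removed by Cre under the control of Lyz2, which is active in macrophages and neutrophils and not in hepatocytes. The study fed males and females, and the sex of the mice behind each library, and whether a library holds cells of more than 1 liver, are not given in the sources used here.

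Hepatocytes make bile acids from cholesterol. Cyp7a1 catalyzes the rate-limiting step of the classic route, Cyp27a1 acts in the acidic route and in side-chain oxidation, Cyp8b1 directs synthesis toward cholic acid, and Baat joins bile acids to taurine or glycine. The conjugated acids are pumped into bile by Abcb11 (BSEP). Bile acids return through the portal blood and are taken up again through Slc10a1 (NTCP) and Slco1b2. Nr1h4 encodes the bile acid receptor FXR, and Nr0b2 encodes SHP, a repressor that FXR induces and that lowers transcription of Cyp7a1 and Cyp8b1.

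The library labelled AEG-1DMAC held 2581 cells and 79589511 counts, and the library labelled AEG-1fl/fl held 3535 cells and 90440089 counts, with 10 cell barcodes found in both. After cell filtering, cells were assigned to types by marker genes, and 1036 and 1094 cells were hepatocyte-like. Their median depth was 32640 and 30743 counts, and all 25 hepatocyte markers were detected. The targeted gene ran against the labels in macrophage-like cells. Scaled to counts-per-million (CPM), Mtdh in macrophage-like cells stood at 119 CPM (258 counts) under the label AEG-1DMAC and at 21.8 CPM (93 counts) under the label AEG-1fl/fl. In neutrophil-like cells Mtdh had 34.4 CPM (11.2 to 80.3, 5 counts) and 44.0 CPM (25.2 to 71.5, 16 counts), too few counts to give a direction. In hepatocyte-like cells it had 61.6 and 57.8 CPM. Each library is therefore named by its label, and each direction rests on the labels as deposited.

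The promoters of the member with the highest ratio between the libraries (Nr0b2) and of 2 members with a shared zonal profile (Slco1b2 and Cyp27a1) are shown here because the later results turn on these genes. Each sequence holds the 250 bases before the annotated start from RefSeq on GRCm38.p6, which is the same build as mm10, and is written from 5′ to 3′ on the strand of the gene. Capitals mark letters that match a motif searched.
Nr0b2 (chr4:133553126-133553375, + strand): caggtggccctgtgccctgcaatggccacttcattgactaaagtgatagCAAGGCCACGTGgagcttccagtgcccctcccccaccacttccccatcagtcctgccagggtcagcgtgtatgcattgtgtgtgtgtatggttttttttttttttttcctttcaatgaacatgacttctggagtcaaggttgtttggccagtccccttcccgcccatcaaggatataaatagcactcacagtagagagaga
Slco1b2 (chr6:141629268-141629517, + strand): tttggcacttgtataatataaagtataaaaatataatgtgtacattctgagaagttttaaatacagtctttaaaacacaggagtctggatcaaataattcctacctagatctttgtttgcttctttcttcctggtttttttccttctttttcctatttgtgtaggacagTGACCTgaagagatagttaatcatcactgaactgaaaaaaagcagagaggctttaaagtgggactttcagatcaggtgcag
Cyp27a1 (chr1:74713285-74713534, + strand): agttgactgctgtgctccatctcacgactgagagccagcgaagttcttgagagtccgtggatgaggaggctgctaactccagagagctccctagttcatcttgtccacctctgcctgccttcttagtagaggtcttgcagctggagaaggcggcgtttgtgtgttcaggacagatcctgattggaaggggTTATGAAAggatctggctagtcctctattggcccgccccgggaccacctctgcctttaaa
RefSeq promoters were matched for 8 of the 10 members. Cyp7a1 and Baat were not matched. Motifs were searched on both strands. The NR5A2 (LRH-1) site CAAGGNCA was found in 5.53% of all 32851 promoters and, among the members, before Cyp8b1 and Nr0b2. The nuclear receptor half-site AGGTCA was found in 14.0% of promoters and before 5 members, Slc10a1, Abcb11, Abcc2, Slco1b2 and Nr1h4. A member was counted when any of its promoters matched. For Slc10a1 the match lay before a downstream start and not before the start at the gene's end. The Nr1h4 promoter lies before a start inside the gene. The D-box TTATGNAA (3.07% of promoters) was found before Cyp27a1 and the E-box CACGTG (6.02%) before Nr0b2, where it overlaps the NR5A2 site. The FXR inverted repeat (IR-1) was made of the half-site, 1 free base and its reverse complement, and only exact letters were searched. It was in 2 of the 32851 promoters and before none of the 8 members. With so few matches over all promoters, this absence is not informative. Before Abcb11 the letters aggccatTGACCT differ from this repeat at 1 base. A half-site match is contained in each IR-1 match. Letters in a window of this length are a description only.

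Levels in hepatocyte-like cells were compared first between the libraries. Counts were summed over the cells of a library and divided by their total to give CPM. Probes differ between genes, so levels are compared between libraries or cells and not between genes. With 1 library per label no test between labels was possible, and 95% intervals (Poisson for CPM, exact binomial for ratios) cover counting error only. A difference was called when it reached 1.5-fold. By this rule 3 of the 10 members differed (Nr0b2, Cyp7a1 and Baat), against 13.1% of the 12840 genes with at least 20 summed counts, 555 of which were higher and 1123 lower in the library labelled AEG-1DMAC.

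Cyp7a1 was lower in the library labelled AEG-1DMAC. It lies on chromosome 4 of GRCm38 from 6265612 to 6275633 and had 6129 counts there, or 104 CPM (101 to 106), and 17182 counts, or 263 CPM (259 to 267), in the library labelled AEG-1fl/fl. The log2 ratio was -1.34 (-1.39 to -1.30), a level 2.54-fold higher in the library labelled AEG-1fl/fl. To compare cells at equal depth, each was thinned to 5000 counts. Cyp7a1 was then detected in 25.5% (22.9 to 28.3, exact binomial) of hepatocyte-like cells in the library labelled AEG-1DMAC and in 46.9% (43.9 to 49.9) in the other. At equal depth a lower level alone gives fewer cells with a count, so this is not a separate result. Without thinning the shares were 62.0% and 80.5%.

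Nr0b2, the repressor, went the other way. It lies on chromosome 4 from 133553376 to 133556536, and had 3914 counts and 66.2 CPM (64.1 to 68.3) in the library labelled AEG-1DMAC. In the library labelled AEG-1fl/fl it had 1689 counts and 25.8 CPM (24.6 to 27.1). The log2 ratio was 1.36 (1.27 to 1.44), or 2.56-fold. After thinning, 25.7% (23.0 to 28.5) and 10.8% (9.01 to 12.8) of the cells held a count of Nr0b2, against 72.6% and 44.7% unthinned.

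Nr1h4, which encodes the receptor upstream of Nr0b2, was not called. It had 112 CPM (110 to 115) in the library labelled AEG-1DMAC and 165 CPM (162 to 168) in the library labelled AEG-1fl/fl, a log2 ratio of -0.56 (-0.60 to -0.51) that lay just inside the 1.5-fold limit. Nr0b2 and the gene of its inducer differed in opposite directions between these libraries. Baat had few counts, 390 and 687, and reached 6.59 CPM (5.95 to 7.28) and 10.5 CPM (9.74 to 11.3), a log2 ratio of -0.67 (-0.86 to -0.49). Its call was lost when each cell was weighted equally, at -0.48.

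The other 6 members stayed within 1.5-fold. Among the enzymes, Cyp8b1 had 275 CPM in the library labelled AEG-1DMAC and 197 CPM in the library labelled AEG-1fl/fl, a log2 ratio of 0.48 (0.45 to 0.52) that ran opposite to that of Cyp7a1. Cyp27a1 had 494 and 449 CPM, a log2 ratio of 0.14 (0.12 to 0.16). Neither enzyme thus shared the direction of Cyp7a1.

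Uptake and export showed no common direction. The sodium-dependent uptake transporter Slc10a1 had 69.6 and 90.7 CPM, a log2 ratio of -0.38 (-0.44 to -0.32), while the sodium-independent Slco1b2 had 958 and 849 CPM, a log2 ratio of 0.17 (0.16 to 0.19). The canalicular pump Abcb11 had 414 and 329 CPM, at 0.33 (0.30 to 0.36). Abcc2, which exports conjugated organic anions, had 173 and 177 CPM, and the interval of its log2 ratio of -0.04 (-0.07 to 0.00) included 0. Over the 10 members, 5 ratios were above 0 and 5 below, with a median of 0.05, beside a median of -0.03 over all genes.

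**Figure D1:**
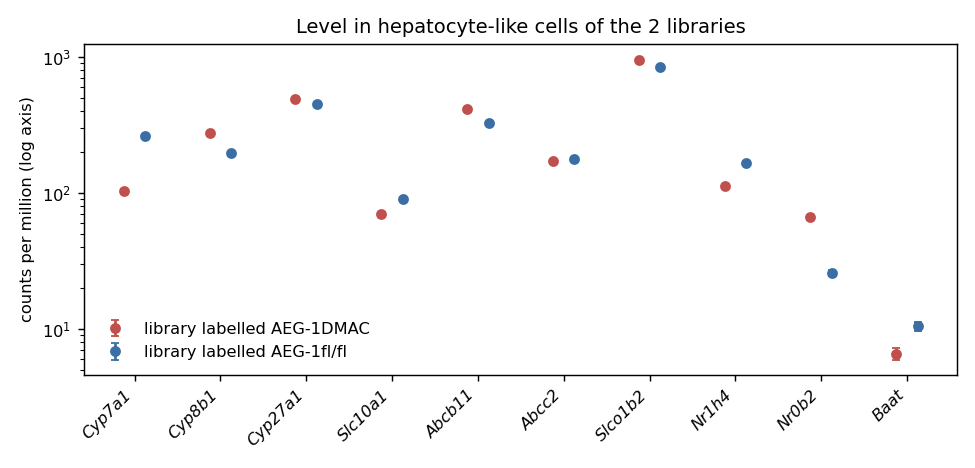
Level of the 10 members (horizontal axis) in hepatocyte-like cells, in CPM on a log axis, with 1 point per library and bars for 95% Poisson intervals, which are mostly smaller than the points. Cyp7a1 was at 104 CPM in the library labelled AEG-1DMAC and at 263 CPM in the library labelled AEG-1fl/fl, and Nr0b2 at 66.2 and 25.8 CPM.

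Other genes of the pathway were then counted. Of 17 other synthesis enzymes, 0 passed 1.5-fold. Their log2 ratios ran from -0.34 (the oxysterol hydroxylase Cyp39a1) to 0.46 (the sterol ring enzyme Hsd3b7), with a median of 0.07. Of 14 other transporters with enough counts, 2 were higher and 3 lower in the library labelled AEG-1DMAC. The higher ones were both subunits of the canalicular sterol exporter, Abcg5 (398 and 172 CPM, log2 ratio 1.21) and Abcg8 (187 and 94.8 CPM, 0.98). The lower ones were the organic anion transporter Slco1a1 (8.13 and 49.3 CPM, -2.60), the basolateral bile acid exporter subunit Slc51b (1.67 and 3.46 CPM, -1.05) and the drug efflux pump Abcb1a (5.51 and 9.64 CPM, -0.81). Of 13 other regulators and receptors with enough counts, 0 passed 1.5-fold, with a median log2 ratio of -0.16, and 10 of the 13 ratios were below 0. The differences past the limit were those of Cyp7a1, Nr0b2, Baat and 5 transporters. Over all 12840 genes 13.1% passed it, and lists this short hold too few genes to be set apart from that share.

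**Figure D2:**
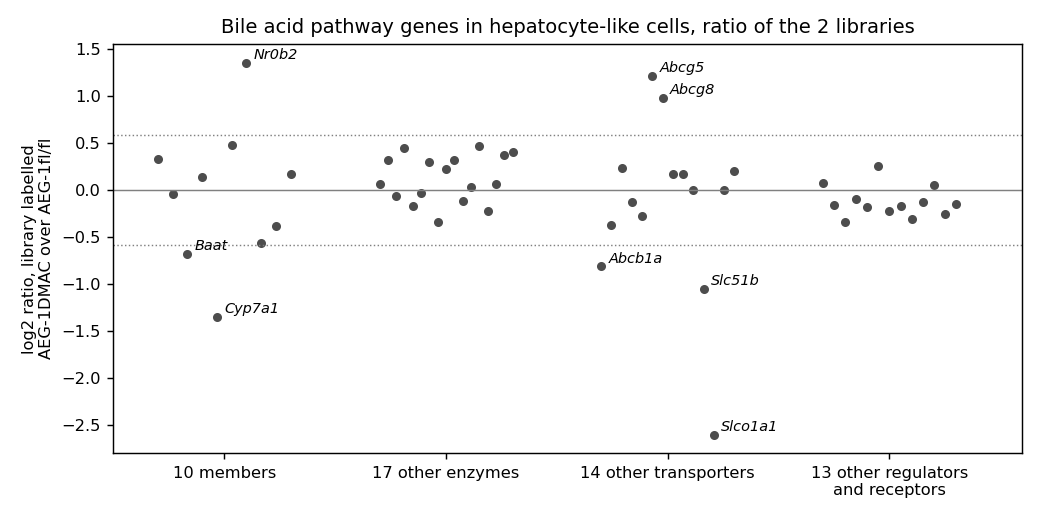
Log2 ratio of the libraries (vertical axis, labelled AEG-1DMAC over AEG-1fl/fl) in hepatocyte-like cells for the 10 members and the 3 other pathway lists, with 1 point per gene and dotted lines at 1.5-fold. Genes past 1.5-fold are named, and the other synthesis enzymes and the other regulators all lie between the dotted lines.

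Several other gene lists also differed between the hepatocyte-like cells of the libraries, where 13.1% of all genes passed 1.5-fold. The part of these lists in the differences above was not tested. Of 14 clock genes, 3 were higher in the library labelled AEG-1DMAC (Npas2 at 2.28, Arntl at 1.82 and Clock at 0.60) and 4 lower (Per3 at -1.29, Dbp at -1.03, Per2 at -0.77 and Tef at -0.66). Of 11 measured sex-linked and sex-biased genes, 3 were higher (Sult1e1 at 4.91, Cyp2b9 at 3.82 and Elovl3 at 1.55) and 3 lower (Slco1a1 at -2.60, Mup20 at -0.93 and Cyp4a12a at -0.81). Elovl3, known as male-biased, thus differed in the opposite direction to the male-biased Mup20 and Cyp4a12a. The 4 Y-linked genes of the list were detected in both libraries, at log2 ratios from -0.39 to 0.17. Of 12 zone check genes, 7 were higher by at least 1.5-fold in the library labelled AEG-1DMAC, Oat at 2.20 the most. Among 8 genes listed as dissociation and stress genes, Fos was higher (1.02) and Jun (-0.59), Hspa1a and Hspa1b were lower. The tissue had been fixed before it was dissociated.

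Next, the position of each member along the liver lobule was measured. Hepatocytes near the portal tract (periportal) and near the central vein (pericentral) divide metabolic work between them. Hepatocyte-like cells of each library were ordered by the raw counts of Cyp2e1, a pericentral gene, against Cyp2f2, a periportal gene, and cut into 3 zones of equal size, of 345 to 346 cells in the library labelled AEG-1DMAC and 364 to 365 cells in the other. Median depth from the periportal to the middle and the pericentral zone was 36425, 27639 and 36765 counts in the library labelled AEG-1DMAC. In the library labelled AEG-1fl/fl it was 36025, 18743 and 46680 counts. Raw counts set the order, so position can depend on depth, and the part of depth was not tested. The pericentral zone was tested against the periportal zone by edgeR with the 2 libraries as replicates, over 12239 genes. The order was checked on 12 zone genes that had not set it, and all 12 passed the test in their known direction (Glul, Slc1a2, Oat, Lhpp, Cyp1a2 and Axin2 pericentral, Pck1, Hsd17b13, Sds, Arg1, Hal and Gls2 periportal). Of the 10 members, 4 were higher in the pericentral zone, where 9.02% of all genes were, and 1 was higher in the periportal zone, where 11.2% of all genes were.

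Slco1b2 had the smallest adjusted p of the 10 members. It lies on chromosome 6 from 141629518 to 141686646. From the periportal to the middle and the pericentral zone it measured 503, 942 and 1503 CPM in the library labelled AEG-1DMAC, and 506, 720 and 1277 CPM in the library labelled AEG-1fl/fl. The level was higher at each step in both libraries. In edgeR the log2 ratio of the pericentral to the periportal zone was 1.22 (SE 0.10, adjusted p = 9.76e-07).

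Cyp7a1 was also higher in the pericentral zone. It measured 39.5, 106 and 176 CPM from the periportal to the pericentral zone in the library labelled AEG-1DMAC, and 166, 229 and 382 CPM in the library labelled AEG-1fl/fl. The edgeR log2 ratio was 1.40 (SE 0.16, adjusted p = 3.35e-05), and within the libraries the CPM ratio was 4.46-fold and 2.30-fold. The periportal zone of the library labelled AEG-1DMAC was the lowest of the 6, and even its pericentral zone lay near the periportal zone of the other library.

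Cyp27a1 followed, with 276, 546 and 706 CPM in the library labelled AEG-1DMAC and 314, 445 and 590 CPM in the library labelled AEG-1fl/fl. Its edgeR log2 ratio was 0.89 (SE 0.10, adjusted p = 3.14e-05). Abcc2 had a smaller difference, with 130, 175 and 221 CPM and 150, 170 and 210 CPM, and a log2 ratio of 0.39 (SE 0.08, adjusted p = 0.0035). Both were higher at each step toward the pericentral zone in both libraries. Without a library term in the fit, Cyp7a1 (adjusted p = 0.50) and Abcc2 (adjusted p = 0.16) lost their calls, and Abcc2 lost its call (adjusted p = 0.077) with another set of genes ordering the cells.

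Of the 6 remaining members, 4 changed their call with the scaling (Slc10a1, Abcb11, Nr1h4 and Nr0b2). The TMM scaling of edgeR sets the bulk of genes near 0, whereas by CPM the median gene was 0.27 (log2) higher in the pericentral zone of the library labelled AEG-1DMAC and 0.17 in the other. With total counts in place of TMM, 4160 genes were called pericentral and 575 periportal, 87.9% of the calls in the first direction, against 1104 and 1365 (44.7%) with TMM. Of the 25 hepatocyte markers, mostly secreted plasma proteins, 19 were higher in the periportal zone with TMM.

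Slc10a1 was called periportal with TMM (log2 ratio -0.27, SE 0.08, adjusted p = 0.033) and not with total counts (-0.03, adjusted p = 0.78). The call was also lost with DESeq2 (adjusted p = 0.17), without the 10% deepest cells (0.088), with the other ordering genes (0.065) and without the library term (0.57). Its CPM was 71.8, 61.2 and 74.0 in the library labelled AEG-1DMAC and 101, 67.5 and 93.5 in the library labelled AEG-1fl/fl. The middle zone was lowest in both, and it also had the lowest median depth. The part of depth in this was not tested. Abcb11 (393, 406 and 444 CPM, and 311, 290 and 370 CPM) had a log2 ratio of -0.02 (SE 0.09, adjusted p = 0.90) with TMM and 0.22 (adjusted p = 0.034) with total counts. Neither gene has a direction here that is independent of the scaling.

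The receptor genes were likewise called pericentral with total counts alone. Nr1h4 had a log2 ratio of 0.10 (SE 0.08, adjusted p = 0.40) with TMM and 0.34 (adjusted p = 0.0064) with total counts. Nr0b2 had 0.11 (SE 0.09, adjusted p = 0.43) and 0.36 (adjusted p = 0.021). Nr0b2 measured 54.5, 67.4 and 78.8 CPM in the library labelled AEG-1DMAC and 25.4, 22.9 and 28.0 CPM in the library labelled AEG-1fl/fl, so all 3 zones of the former lay above those of the latter. For Cyp8b1 (-0.27, SE 0.14, adjusted p = 0.19) and Baat (-0.29, SE 0.15, adjusted p = 0.20) no difference was called under either scaling.

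**Figure D3:**
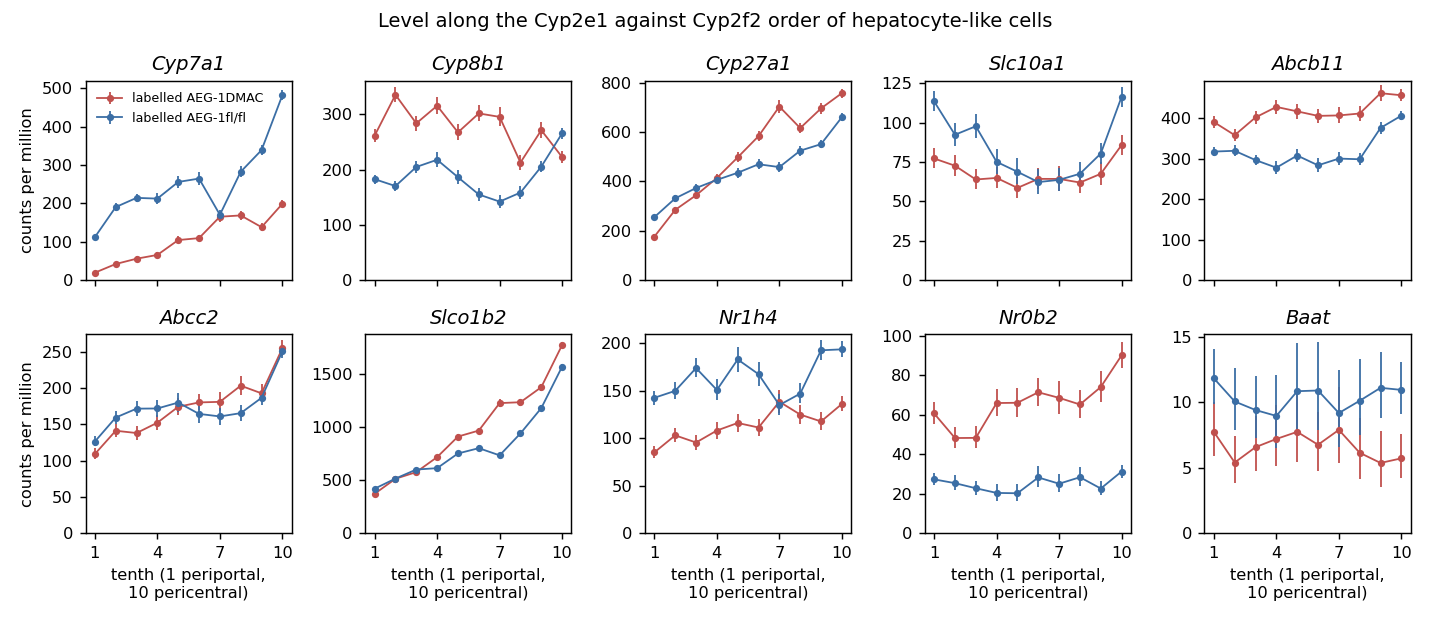
Level of each member (vertical axes, CPM, from 0) over 10 equal bins of the hepatocyte-like cells ordered from periportal (1) to pericentral (10), with 1 line per library and bars for 95% Poisson intervals. Slco1b2, Cyp27a1 and Cyp7a1 are higher at the pericentral end in both libraries (19.0 and 199 CPM at the ends for Cyp7a1 in the library labelled AEG-1DMAC), Cyp7a1 of the library labelled AEG-1fl/fl dips to 170 CPM in bin 7, and Slc10a1 is lower in the middle than at either end.

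Markers of some other cell types moved with the order. With TMM, 9 of 14 macrophage markers and 4 of 7 tested cholangiocyte markers were higher in the periportal zone, where 11.2% of all genes were. Their median log2 ratios were -0.46 and -1.29. Most markers of the other types were not called, such as 9 of 10 tested endothelial cell markers and 6 of 8 stellate cell markers. Of 4 tested T or NK cell markers and 3 tested dendritic cell markers, 0 were called. The part of cells carrying such RNA in the zonal results was not tested.

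The difference between the libraries was then read within each zone. Cyp7a1 was lower in the library labelled AEG-1DMAC in all zones, with log2 ratios of -2.07 (-2.18 to -1.97) periportal, -1.11 middle and -1.12 (-1.17 to -1.06) pericentral. Nr0b2 was higher in all zones, at 1.10, 1.56 and 1.49. For Cyp8b1 the log2 ratio was 0.69 periportal and 0.72 middle, and 0.09 (0.04 to 0.15) pericentral, so its ratio was larger outside the pericentral zone. Nr1h4 passed 1.5-fold in the periportal zone (-0.71) and not in the others (-0.48 and -0.46).

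Zonal profiles were compared between genes over 20 points, 10 bins of equal size in each library, which share libraries and depth, so that the correlations are descriptions. Cyp27a1 and Slco1b2 had a Pearson's r of 0.96, Cyp7a1 and Nr1h4 of 0.92, Abcb11 and Nr0b2 of 0.87, and Nr0b2 and Baat of -0.83. Among 5452 other genes, those most like Slco1b2 were Aqp9, Rdh16 and Glul (r from 0.98 to 0.99), and those most like Cyp27a1 were Lect2, Lpin2 and Rnase4 (0.98). Most like Cyp7a1 were Nceh1, Angptl4 and Cyp4a10 (0.97), and most like Nr1h4 were Cpt1a, Naa60 and Alas1 (0.96). Nr0b2 was most like Hibadh, Slc25a22 and Insig2 (0.96 to 0.97), and Abcb11 most like Sec14l2, Bcar3 and Lamp2 (0.92 to 0.95). For Abcc2 these were Cdh2, Eif2b4 and Mief2 (0.94 to 0.96), for Baat Dio1, Selenbp2 and Deptor (0.89), for Cyp8b1 Cisd1, Gadd45g and Rdh11 (0.84 to 0.86), and for Slc10a1 Cyp51, Slc37a4 and Hacl1 (0.79 to 0.84). These values join differences along the order with differences between the libraries.

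Other pathway genes were zoned in both directions, where 9.02% of all genes were called pericentral and 11.2% periportal. Of 17 other synthesis enzymes, 4 were higher in the pericentral zone, among them Cyp3a11 (log2 ratio 1.32) and Akr1c6 (1.02), and 6 in the periportal zone, among them Cyp39a1 (-1.52) and the muricholic acid enzyme Cyp2c70 (-0.73). Of 14 other transporters, 3 were pericentral, Slco1a1 (2.45), Abcc4 (2.81) and the phospholipid flippase Abcb4 (0.46), and 3 periportal, Slc10a2 (-0.54), Abcg8 (-0.49) and Abcg5 (-0.42). Of 13 other regulators and receptors, 3 were pericentral, with the xenobiotic receptor Nr1i3 (1.72) first, and 2 periportal, Fgfr4 (-0.92) and Hnf4a (-0.24).

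Finally, the members were measured in the other cell types. Hepatocyte RNA was present in every type. The summed level of the 25 hepatocyte markers, as a percentage of its level in hepatocyte-like cells of the same library, was 46.4% and 24.5% in the 250 and 513 macrophage-like cells, 59.2% and 46.2% in the 273 and 386 endothelial cell-like cells, and 68.3% and 46.8% in the 196 and 272 stellate cell-like cells. In the 43 and 104 cholangiocyte-like cells it was 93.5% and 64.4%, although all 8 cholangiocyte markers were detected in both libraries. In T or NK, B, neutrophil-like and dendritic cell-like cells it ran from 52.6% to 90.6%. The share of the hepatocyte level that a member kept in a cell type was therefore divided by that of the hepatocyte markers, and a member was called when this fold was at least 2 in both libraries with at least 20 counts in each.

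By this rule 1 member was called in 1 cell type, Nr1h4 in stellate cell-like cells, where 46.5% of all genes with enough counts were called. Nr1h4 lies on chromosome 10 from 89454234 to 89533585. It had 430 counts, or 229 CPM (207 to 251), in stellate cell-like cells of the library labelled AEG-1DMAC and 662 counts, or 277 CPM (256 to 298), in those of the library labelled AEG-1fl/fl. These levels were 203% and 167% of those in hepatocyte-like cells, and 2.98-fold (2.69 to 3.28) and 3.58-fold (3.30 to 3.87) above what the hepatocyte markers kept. After thinning to 5000 counts, 58.6% (48.2 to 68.4) of 99 and 67.8% (59.5 to 75.4) of 143 stellate cell-like cells held a count of Nr1h4, against 37.6% and 47.0% of hepatocyte-like cells. In macrophage-like cells, thinned in the same way, the shares were 20.3% and 12.9%. Median depths before thinning were 5032 and 5392 counts in stellate cell-like and 5374 and 5693 counts in macrophage-like cells. Unthinned shares in stellate cell-like cells were 81.8% and 86.0%, and 97 and 129 cells were too shallow to be thinned.

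In cholangiocyte-like cells 0 of 8 members with enough counts were called, where 17.0% of all genes were. Their folds over the hepatocyte markers ran from 0.45 (Cyp27a1 and Slco1b2) to 0.96 (Slc10a1) in the library labelled AEG-1DMAC and from 0.68 (Slc10a1) to 1.12 (Nr1h4) in the library labelled AEG-1fl/fl. Of the 25 hepatocyte markers 19 were higher in the periportal zone with TMM, while Cyp27a1 and Slco1b2 were higher in the pericentral zone. The part of zone in these folds was not tested. Cyp7a1 had 16 and 397 counts in cholangiocyte-like cells and Baat 3 and 28, too few in at least 1 library. The apical bile acid transporter Slc10a2, which cholangiocytes carry and which was singled out after its values were seen, stood at 48.6 and 43.6 CPM there and at 41.8 and 37.1 CPM in hepatocyte-like cells, with folds of 1.24 and 1.82.

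In macrophage-like cells 0 of 9 members were called, against 75.4% of all genes. Cyp27a1, which in macrophages converts cholesterol to 27-hydroxycholesterol, had the highest folds there, 1.28 (1.18 to 1.39) and 1.66 (1.55 to 1.79), at 293 and 183 CPM, and the other 8 members with enough counts ran from 0.55 to 1.07. In endothelial cell-like cells (64.2% of genes called), T or NK cell-like cells (41.4%), B cell-like cells (13.5%), neutrophil-like cells (5.91%) and dendritic cell-like cells (56.3%), 0 members were called out of 8, 8, 9, 5 and 4 with enough counts. Cyp7a1 was below the hepatocyte markers in stellate cell-like cells of both libraries, at 0.34 (0.25 to 0.45) and 0.38 (0.31 to 0.45). Cyp7a1 was pericentral and most of these markers periportal, and the part of zone in this was not tested.

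**Figure D4:**
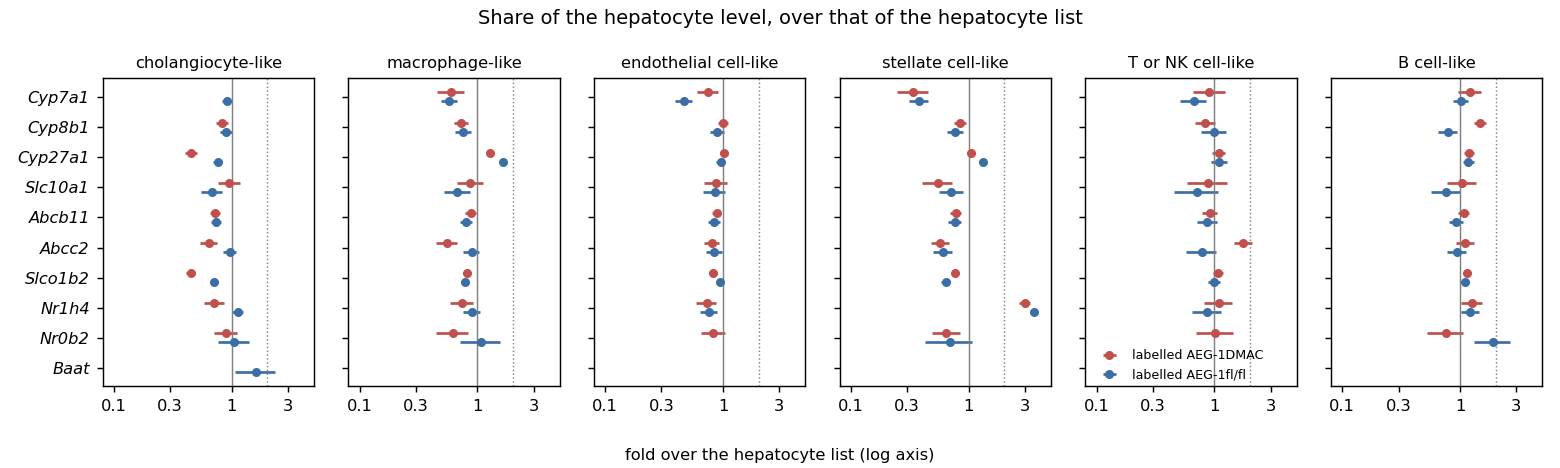
Share of the hepatocyte level that each member (vertical axis) kept in 6 cell types, divided by the share that the 25 hepatocyte markers kept (horizontal log axis), with 1 point per library, 95% counting intervals and genes with at least 20 counts in that library. The solid line marks 1 and the dotted line 2, and Nr1h4 in stellate cell-like cells lies beyond the dotted line at 2.98 and 3.58.

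Other pathway genes were counted by the same rule. In macrophage-like cells, where 75.4% of all genes were called, those called were 4 of 12 other regulators (Nr1h3, Nr1h2, Rxra and Mafg), 2 of 10 other transporters (Abcc3 and Abcc4) and 1 of 13 other enzymes (Acot8), a lower share than over all genes. Nr1h3, the oxysterol receptor LXR alpha, had folds of 14.4 and 23.9 at 548 and 543 CPM in macrophage-like cells, against 82.3 and 92.7 CPM in hepatocyte-like cells. In stellate cell-like cells (46.5% of all genes) Nr1h2 and the organic anion transporter Slco2b1 (2.21 and 3.81) were called, in endothelial cell-like cells (64.2%) Nr5a2, Nr1h2 and Abcc4, and in T or NK cell-like cells (41.4%) Abcb1a. In cholangiocyte-like cells (17.0%), Cyp39a1 (3.28 and 4.86), Abcb1a (6.64 and 4.82) and Fgfr4 (2.05 and 4.15) were called.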

How the data were processed

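The authors deposited unnormalized counts for each cell and gene, for which the submitters' processing notes name Cell Ranger 7.1.0 and mm10. Barcodes under 100 genes or above 10% mitochondrial reads were removed, leaving 2571 and 3508 cells. No doublet caller was run, and 554 and 756 cells had no type and 92 and 124 more than 1. A type required exactly 1 marker list at 5 times or more its share in the library with 3 markers detected. Hepatocyte-like cells had at least 5000 counts, at least 0.5 times the library's share of hepatocyte markers and no other list at 3 times or more with 3 markers detected. These limits were set after the data were seen, and the members and lists were chosen with earlier results of these data known. Genes named are the members, Mtdh, listed pathway and context genes past a limit, and the 3 genes most like each member by Pearson's r of log2(CPM + 1) among genes with at least 20 CPM in both libraries. Xist, Cyp3a41a and Mmrn2 were listed and not measured. The value of 1 listed pathway gene is not reported here.

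Sums per library and type were made in pandas 2.3.3 and NumPy 2.4.6 (Python 3.11.15), intervals in SciPy 1.17.1 and plots in matplotlib 3.10.9. Zones were tested on counts summed per library and zone in edgeR 4.0.16 under R 4.3.3 (quasi-likelihood F-test, TMM, filterByExpr, library as a term, Benjamini-Hochberg over all genes, adjusted p under 0.05), with Cyp2e1 and Cyp2f2 left out. With library as a term, the p-values rest on how far zone differences vary between these 2 libraries, not on their difference in level. The spread was estimated with information shared across genes. DESeq2 1.42.0 was an alternative. Scripts were tested on simulated data.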

Additional observations from a re-analysis of the deposited data

Results flagged for a closer look

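Effects with opposite signs in the libraries or zones, each with a counting interval clear of 0, were found for 3 members, and the difference itself was not tested, since each arm is 1 library. The log2 ratio of pericentral to periportal CPM of Cyp8b1 was -0.35 (-0.40 to -0.30) in the library labelled AEG-1DMAC and 0.25 (0.20 to 0.31) in the library labelled AEG-1fl/fl. With TMM scaling these ratios were -0.64 and 0.07.

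The log2 ratio of the libraries (labelled AEG-1DMAC over AEG-1fl/fl) for Cyp27a1 was -0.19 (-0.24 to -0.14) in the periportal zone and 0.26 (0.23 to 0.29) in the pericentral zone. For Abcc2 it was -0.20 (-0.27 to -0.13) and 0.074 (0.02 to 0.13). These ratios are by CPM. The log2 ratio of the pericentral to the periportal zone of Cyp27a1, labelled AEG-1DMAC first, was 1.36 and 0.91 by total counts. With TMM scaling it was 1.06 and 0.73. For Abcc2 it was 0.77 and 0.49 by total counts and 0.47 and 0.31 with TMM, so the libraries lay closer with TMM.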

How the results depend on the processing

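The count of members past 1.5-fold between the libraries was 3 and lay between 2 and 5 under 12 alternatives. It was 5 in the periportal zone alone (chosen after seeing the data, with Cyp8b1 and Nr1h4 added), 4 with the stricter cell filter (Nr1h4 added, -0.60) and 2 where each cell had equal weight (Baat lost). Over all genes 13.1% passed 1.5-fold in the main setting. The shares under the 12 alternatives are not given here, so these counts have no background of their own. Cyp7a1 and Nr0b2 passed under each of these 12. Over the members and these alternatives, 49 log2 ratios of the libraries lay outside the counting interval of the main setting and 71 within it. The count of members called between the zones was 5, and was 3 with the order set by Cyp1a2 and Oat against Hal and Gls2 (Abcc2 and Slc10a1 lost, adjusted p = 0.077 and 0.065) and 2 without the library term (Cyp27a1 and Slco1b2 kept, Cyp7a1, Abcc2 and Slc10a1 lost). With total counts in place of TMM, chosen after seeing the data, it was 7, and Abcb11 turned from -0.02 to 0.22. Slc10a1 was also lost with DESeq2 (adjusted p = 0.17) and without the 10% deepest cells (0.088), where Cyp8b1 was gained (-0.42, adjusted p = 0.023). The cause of these shifts was not tested. Over all genes, edgeR called 1104 pericentral and 1365 periportal, DESeq2 645 and 748, the fit without the library term 159 and 139, and that with total counts 4160 and 575. The fit with the other ordering genes called 1128 and 998, and that without the 10% deepest cells 806 and 1038. The count of members above the hepatocyte markers in other cell types was 1, and 2 with the stricter gate (Nr0b2 in cholangiocyte-like cells added). Under the main gate 17.0% of all genes were called in cholangiocyte-like cells. The share under the stricter gate is not given here.

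Leaving out 1 library left no residual degrees of freedom, so the count of calls could not be had. The TMM-scaled log2 ratios of single libraries, from Cyp7a1 at 1.86 and 1.03 to Slc10a1 at -0.25 and -0.29, kept their direction for the 5 called members. No paired analysis was possible because each label has 1 library. Differences between labels rest on 1 library each, and depth limits the values of Baat, at 390 and 687 counts, and of the small classes, such as neutrophil-like cells at 10 and 50 cells and dendritic cell-like cells at 18 and 41.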
